A study of Zea mays with 6 samples.

Results

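In maize endosperm sampled 10 days after pollination, 203 genes combined a high transcript level with nearly the same level in every library. They were chosen by 2 criteria on the deposited values, a mean of at least 50 FPKM over all 6 libraries and a highest library at most 15% above the lowest. They made up 203 of 39448 genes in the tables, or 0.515%, and 203 of the 1730 genes that met the level criterion, or 11.7%. FPKM counts the fragments assigned to a gene and divides them by its length and by the size of its library. Genes meeting both criteria are called steady below, and genes meeting the level criterion are called abundant. The values of the 6 libraries themselves chose the steady genes, so their differences between genotypes are described and not tested.

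The study compared the fl3 (floury3) mutant with wild type (WT), with 3 libraries of endosperm from field-grown plants per genotype. The design text describes the 3 as biologically independent. Endosperm is the storage tissue of the kernel, and fl3 kernels have a soft, opaque endosperm. The floury3 gene encodes a plant-specific zinc-binding protein of the PLATZ family. No treatment or inbred background is given in the sources used here, and both genotypes were taken at the same age. Endosperm markers were high in both, at a summed 11298 to 15428 FPKM in fl3 libraries and 23416 to 28208 FPKM in WT libraries, and 8 of the 9 fell and 1 rose in fl3 by limma at an adjusted p under 0.05. Markers of the embryo-surrounding region summed to between 460.0 and 598 FPKM in fl3 against 141 to 178 FPKM in WT, and all 4 of them rose. Embryo markers summed to between 225 and 257 FPKM in fl3 against 148 to 162 FPKM in WT, and 3 of the 4 tested rose. Basal transfer layer markers summed to between 2626 and 4910 FPKM in fl3 and between 2393 and 3368 FPKM in WT, and 2 of the 6 tested rose. Aleurone markers, one of which (Nkd2) is a steady gene, ranged over 452 to 475 FPKM in fl3 and 419 to 429 FPKM in WT, and of the 4 tested 2 rose and 1 fell. Markers of green maternal tissue summed to between 8.19 and 10.8 FPKM in fl3 against 3.41 to 4.32 FPKM in WT, and the 1 tested marker rose. No matched marker was at 0 in all libraries. By the same fit 43.5% of all genes tested were called higher and 23.8% lower in fl3. The marker lists are short, and no count is read as a change of tissue makeup. In whole endosperm, a smaller number of cells of one kind and less RNA in each of them cannot be told apart, and the part of tissue makeup in the steady set was not tested.

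Transcript measurements by quantitative PCR are expressed relative to a reference gene that is assumed to hold its level across the samples. The usual choices are housekeeping genes, which carry out tasks that every cell needs, such as actin filaments, microtubules, glycolysis and protein synthesis. In developing endosperm these tasks run beside the synthesis of starch and storage proteins, and the storage program takes a large share of the RNA.

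The steady genes were a narrow tail of the abundant ones. Among the 1730 abundant genes the ratio of highest to lowest library had a median of 1.39 and quartiles of 1.23 and 1.70, and 280 genes (16.2%) reached a ratio of 2 or more. Steady genes ran upward from a ratio of 1.03 to the limit with a median of 1.11. The highest library was at most 10% above the lowest for 67 of them, and at most 5% above for 5. Their coefficient of variation over the 6 libraries lay between 1.24% and 6.47%, with a median of 4.17%. Their mean level ran between 50.04 and 1692 FPKM with a median of 88.1 FPKM, close to the median of 90.9 FPKM for all abundant genes. Steadiness was spread over the whole range of level, with 117 of 970 genes (12.1%) at 50 to 100 FPKM, 52 of 443 (11.7%) at 100 to 200 FPKM, 26 of 226 (11.5%) at 200 to 500 FPKM and 8 of 91 (8.79%) at 500 FPKM or more. Together the steady genes held 6.25% to 6.48% of the FPKM sum of a library, and the abundant genes 60.6% to 65.6%.

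**Figure D1:**
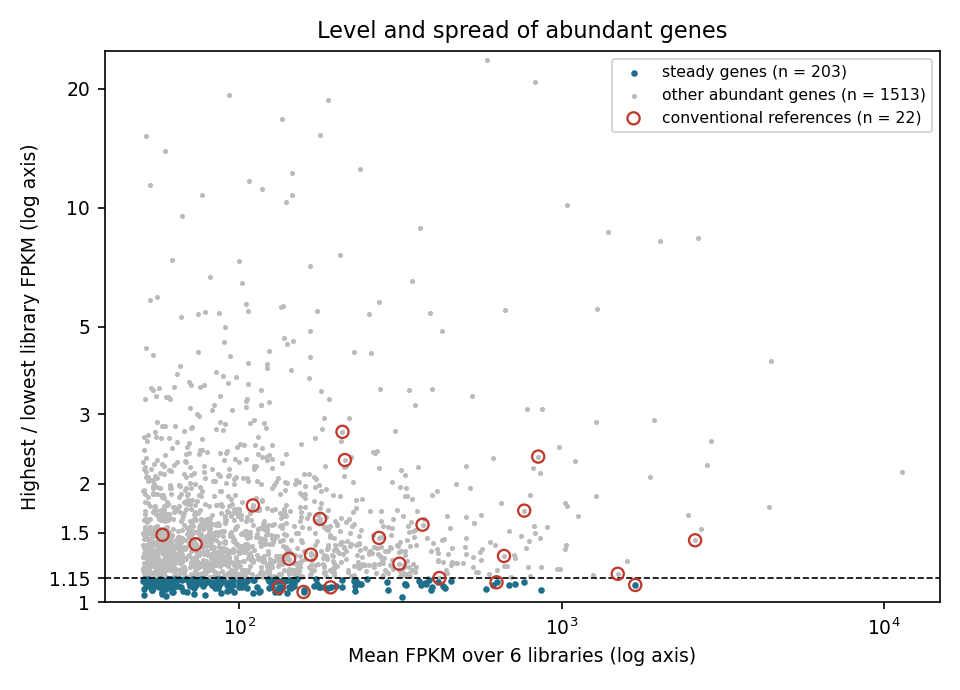
Each point is a gene with a mean of at least 50 FPKM, placed by its mean level over the 6 libraries and by the ratio of its highest to its lowest library, both on log axes. Blue points are the 203 steady genes under the dashed line, which marks a highest library 15% above the lowest, grey points the other abundant genes, and red rings the 22 conventional reference genes, of which 5 lie under the line. 12 genes lie above the top of the axis at a ratio of 25, and 2 genes with a library at 0 have no ratio and are not drawn.

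The small differences left among the steady genes went both ways. The fl3 mean was above the WT mean for 98 of them and below it for 105. Their log2 fold changes (fl3 over WT, after adding a pseudocount of 1 FPKM, as for every fold change here unless another scale is named) ran between -0.16 and 0.16 with a median of -0.003. The median was 0.14 over the 17272 genes of at least 1 FPKM that were tested, and 0.03 over the abundant genes. The limma fit across all tested genes called 67.3% of them at an adjusted p under 0.05, 43.5% higher and 23.8% lower in fl3. Calls higher in fl3 were 64.7% of all calls as deposited, 57.2% under upper-quartile scaling, 48.2% under quantile normalization and 48.5% under median-of-ratios scaling. As deposited, limma called 67.9% of the abundant genes, 36.4% higher and 31.5% lower. Of the steady genes it called 9, 4 higher and 5 lower, and nothing is read from this count because the ratio criterion used the same values. The 3 fl3 libraries lay wholly above or below the 3 WT libraries for 61 steady genes (30.0%), 33 above and 28 below. That share is 71.7% of all tested genes (45.8% above and 25.9% below) and 73.1% of the abundant ones (38.9% above and 34.2% below). A gene that is steady by this rule can thus still have all its fl3 libraries to the same side of its WT libraries as deposited. The ratio criterion used the same values, and the side depends on the scaling. Under median-of-ratios scaling 180 steady genes lay wholly below and 0 wholly above.

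Membership at the edges rested on very small differences. At the ratio limit, GRMZM2G430027 at 1.1495 and GRMZM2G042683 at 1.1497 were inside, and GRMZM2G014313 at 1.1501 and GRMZM2G102779 at 1.1509 were outside. At the level limit, GRMZM2G025598 with a mean of 50.04 FPKM and GRMZM2G019695 with 50.39 FPKM were inside. GRMZM2G011456 with 49.90 FPKM and GRMZM2G159675 with 49.96 FPKM met the ratio limit and fell short of the level.

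The steadiest gene of all was GRMZM2G145280, which had 312, 318 and 322 FPKM in fl3 endosperm, against 321, 321 and 323 FPKM in WT endosperm. The 6 values spanned 3.38% of the lowest, with fl3 replicate 1 lowest and WT replicate 3 highest, and the genotypes overlapped. Next came GRMZM2G007122, at 60.0, 57.9 and 60.0 FPKM in fl3 endosperm, against 57.7, 59.4 and 59.2 FPKM in WT endosperm, followed by GRMZM2G174696, at 49.6, 51.6 and 49.5 FPKM in fl3 endosperm, against 50.1, 50.7 and 51.1 FPKM in WT endosperm. These spanned 4.07% and 4.19% of their lowest library, again with overlapping genotypes. None of the 3 has a name in the reference table. At the other end of the level range, EF1A, GRMZM2G153541, was the most abundant steady gene and AC233866.1_FG006 the next, at 886, 858 and 903 FPKM in fl3 endosperm, against 843, 856 and 837 FPKM in WT endosperm. All 3 fl3 values of AC233866.1_FG006 lay above all 3 WT values, by a margin smaller than the spread among the fl3 libraries. GRMZM2G013457, the third by level, had 806, 744 and 782 FPKM in fl3 endosperm, against 714, 784 and 753 FPKM in WT endosperm, with overlapping genotypes.

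Which functions the steady genes carry can be read only for those with a name. The RefSeq gene table matched 176 of the 203, of which 5 matched several reference genes. An informative symbol was found for 29. That is 14.3% of the steady genes, against 20.3% of the abundant genes, so the roles of most steady genes are not described here. The named ones covered protein synthesis, the cytoskeleton, central and isoprenoid metabolism, membrane transport and lipids, wall synthesis, splicing and signalling.

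Protein synthesis gave 6 named steady genes. EF1A encodes elongation factor 1-alpha, which brings aminoacyl-tRNAs to the ribosome, and it had 1659, 1584 and 1699 FPKM in fl3 endosperm, against 1754, 1725 and 1732 FPKM in WT endosperm. All 3 fl3 values were below all 3 WT values, and the whole span was 10.7% of the lowest value. The gene eif5a, GRMZM2G113696, encodes a factor that keeps elongation moving through difficult stretches, and it had 417, 413 and 441 FPKM in fl3 endosperm, against 439, 447 and 449.7 FPKM in WT endosperm. Its genotypes overlapped, since fl3 replicate 3 was above WT replicate 1. The gene eIF4E1, GRMZM2G002616, encodes the protein that binds the cap of messenger RNA at the start of translation, and it had 101, 96.9 and 102 FPKM in fl3 endosperm, against 108, 108 and 104 FPKM in WT endosperm. Here the fl3 libraries were the 3 lowest, and the highest value was 11.6% above the lowest.

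The other 3 were ribosomal proteins. The gene rps4 (GRMZM2G125271), for a small-subunit protein, had 422, 432 and 467 FPKM in fl3 endosperm, against 467, 461 and 479 FPKM in WT endosperm, and only fl3 replicate 3 reached into the WT range. RPL19 (GRMZM5G887054), for a large-subunit protein, had 144, 143 and 140.2 FPKM in fl3 endosperm, against 157, 151 and 151 FPKM in WT endosperm, with every fl3 library below every WT library. The gene rps24 (GRMZM2G091383), for another small-subunit protein, had 212, 225 and 209.9 FPKM in fl3 endosperm, against 206, 197 and 199 FPKM in WT endosperm, with every fl3 library above every WT library. These directions hold for the values as deposited: under median-of-ratios scaling the log2 ratio of the genotype means was -0.08 for rps24 and -0.29 for RPL19, both lower in fl3. The gene rps24 was one of 4 named genes outside the naming rule, with grf1, asn1 and ppt2, and all 4 were picked with their values in view.

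Most genes of the same families were not steady. Of 19 abundant cytosolic ribosomal protein genes, 3 were steady (15.8%), and of 10 abundant translation factor genes also 3 (30.0%), beside 11.7% of all abundant genes. Over all 30 tested ribosomal protein genes, 11 rose, 9 fell and 10 did not pass by limma, beside 43.5% higher and 23.8% lower of all tested genes, with a median log2 fold change of -0.03. The second gene named rps4, GRMZM2G035017, fell to 453 ± 15.6 FPKM in fl3, against 559 ± 17.9 FPKM in WT (SD, n = 3 each, log2 fold change -0.30, adjusted p = 0.00228 by limma). A second eIF5A gene, tif5A (GRMZM2G144030), rose to 268 ± 11.8 FPKM in fl3, against 202 ± 4.80 FPKM in WT (SD, n = 3 each, log2 fold change 0.40, adjusted p = 2.98e-04 by limma). These and the other sister genes of steady genes described below were likewise picked with their values in view, and the difference in fold change between sister genes was not tested. How reads that fit more than 1 copy were assigned is not given in the sources used here, so the values of near-identical copies, such as tubulins, actins, elongation factor 1-alpha, histones and ubiquitins, are uncertain as single genes.

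**Figure D2:**
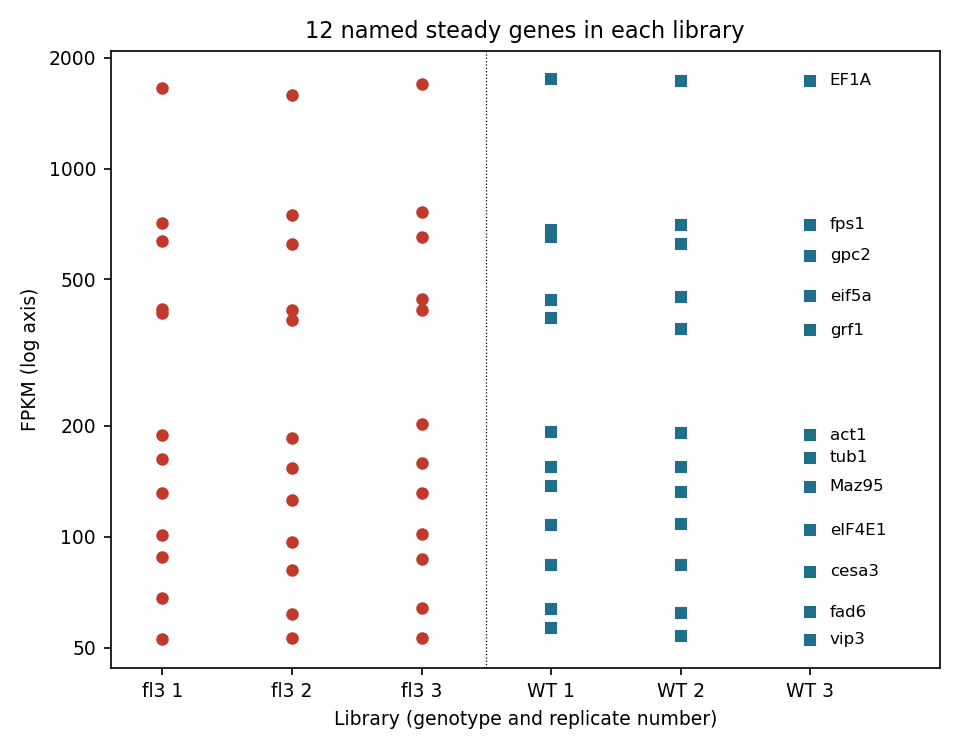
FPKM on a log axis of 12 named steady genes in each library, with red circles for the 3 fl3 libraries and blue squares for the 3 WT libraries and the gene name beside WT replicate 3. Mean levels run between 53.6 FPKM for vip3 and 1692 FPKM for EF1A, and each gene keeps its height across the 6 columns.

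The cytoskeleton gave 3 steady genes, 2 actins and a beta-tubulin. Actin filaments carry cytoplasmic streaming and vesicle movement, and microtubules form the spindle and guide the laying down of cellulose. Of the actins, act1 (GRMZM2G126010) had 189, 185 and 202 FPKM in fl3 endosperm, against 193, 192 and 189 FPKM in WT endosperm, and Maz95 (GRMZM2G053299) had 132, 126 and 132 FPKM in fl3 endosperm, against 137, 133 and 137 FPKM in WT endosperm. The genotypes overlapped for act1, with fl3 replicate 3 the highest library and fl3 replicate 2 the lowest, and for Maz95 all fl3 values were below all WT values, with the nearest fl3 and WT libraries almost equal. The beta-tubulin TUB1 (GRMZM2G164696) was the steadiest gene with a name, at 163, 154 and 158 FPKM in fl3 endosperm, against 154, 155 and 164 FPKM in WT endosperm. Its highest and lowest libraries, WT replicate 3 and fl3 replicate 2, differed by 6.29%.

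Metabolism gave 4. The gene gpc2 (GRMZM2G180625), a cytosolic glyceraldehyde-3-phosphate dehydrogenase of glycolysis, had 635, 624 and 651 FPKM in fl3 endosperm, against 653, 624 and 580.3 FPKM in WT endosperm. Its lowest library was WT replicate 3, and the genotypes overlapped. Farnesyl pyrophosphate synthase, which makes the precursor of sterols and other isoprenoids, is encoded by fps1 (GRMZM2G168681), with 711, 747 and 761 FPKM in fl3 endosperm, against 682, 704 and 704 FPKM in WT endosperm. Every fl3 library of fps1 was above every WT library, and its level exceeded that of gpc2 in each of the 6 libraries. Asparagine synthetase, which moves an amide group onto aspartate to form a nitrogen transport compound, is encoded by asn1 (GRMZM2G074589), with 72.8, 69.4 and 71.0 FPKM in fl3 endosperm, against 78.2, 77.9 and 78.8 FPKM in WT endosperm. The phosphoenolpyruvate/phosphate translocator ppt2 (GRMZM2G103047) of the plastid envelope had 82.3, 81.2 and 78.4 FPKM in fl3 endosperm, against 88.9, 89.1 and 89.7 FPKM in WT endosperm. For asn1 and ppt2 the fl3 libraries were lower than every WT library, with gaps between the genotypes wider than the spread within either genotype.

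Membranes and the wall gave vpp2, vdac2, fad6 and cesa3. The proton-pumping pyrophosphatase vpp2 (GRMZM2G094497), an enzyme that acidifies the vacuole, had 139.6, 137 and 138 FPKM in fl3 endosperm, against 150.2, 148 and 144 FPKM in WT endosperm. Its fl3 libraries were the 3 lowest and lay close together. The porin vdac2 (GRMZM2G115049) of the outer mitochondrial membrane had 166, 176 and 173 FPKM in fl3 endosperm, against 168, 174 and 186 FPKM in WT endosperm, and the cellulose synthase subunit gene cesa3 (GRMZM2G039454) had 87.9, 81.0 and 87.2 FPKM in fl3 endosperm, against 83.9, 83.7 and 80.4 FPKM in WT endosperm. Both overlapped between genotypes. The fatty acid desaturase gene fad6, GRMZM2G078569, which matched 2 reference genes, had a span of 10.4% of its lowest library, with its highest and lowest libraries both in fl3. In each of these families 1 abundant gene was steady, of 3 pyrophosphatases, 3 porins, 3 cellulose synthases and 2 desaturases. Of all abundant genes 11.7% were steady, and families this small are not set against that share. The sister genes vdac1b (GRMZM2G146670; log2 fold change -0.25, adjusted p = 0.00866 by limma) and cesa6 (GRMZM2G113137; log2 fold change -0.19, adjusted p = 0.0118 by limma) fell. The genes cesa5 (GRMZM2G111642; log2 fold change 0.54, adjusted p = 1.45e-04 by limma) and FAD2 (GRMZM2G056252; log2 fold change 0.43, adjusted p = 3.51e-04 by limma) rose. The pyrophosphatase vpp1 (GRMZM2G069095; log2 fold change -0.19, adjusted p = 0.0422 by limma) fell, and this call was lost without any 1 of 5 libraries, every library but fl3 replicate 1, and with equal library sums. Neither vpp3 (GRMZM2G421857; log2 fold change 0.12, adjusted p = 0.0958 by limma) nor vdac1a (GRMZM2G150616; log2 fold change 0.09, adjusted p = 0.247 by limma) passed the threshold. Both fold changes turned negative under median-of-ratios scaling, also without passing.

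Splicing, signalling and regulation gave 5 with a known role. Both steady splicing genes encode arginine/serine-rich proteins, which bind exons and help the spliceosome choose splice sites. RS2Z37A (GRMZM2G175419) had 52.8, 53.7 and 52.6 FPKM in fl3 endosperm, against 50.1, 49.0 and 47.5 FPKM in WT endosperm, and SR45_2 (GRMZM2G133926) had 55.1, 54.4 and 58.5 FPKM in fl3 endosperm, against 53.8, 56.1 and 51.6 FPKM in WT endosperm. For RS2Z37A every fl3 library was above every WT library, and for SR45_2 the genotypes overlapped. Of 3 abundant genes of this type, these 2 were steady, beside 11.7% of all abundant genes, a count too small to set against that share. The sister gene SR45_1 (GRMZM2G060540) rose to 118 ± 3.71 FPKM in fl3, against 98.9 ± 5.89 FPKM in WT (SD, n = 3 each, log2 fold change 0.25, adjusted p = 0.00602 by limma), a call lost under median-of-ratios scaling. The MAP kinase kinase gene mek1 (GRMZM2G167856), of a phosphorylation cascade in signalling, had 146, 149 and 152 FPKM in fl3 endosperm, against 135, 151 and 141 FPKM in WT endosperm. The 14-3-3 protein gene grf1 (also GF14-6, GRMZM2G102499), whose product binds phosphorylated partners, had 404, 388 and 414 FPKM in fl3 endosperm, against 393, 366 and 364 FPKM in WT endosperm. Both overlapped between genotypes. The other abundant 14-3-3 gene, grf2 (GF14-12, GRMZM2G078641), rose to 100.2 ± 3.72 FPKM in fl3, against 82.9 ± 5.66 FPKM in WT (SD, n = 3 each, log2 fold change 0.27, adjusted p = 0.00496 by limma), likewise lost under median-of-ratios scaling.

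A transcription factor of endosperm cell identity was also steady. Nkd2 (naked endosperm2, GRMZM5G884137) is a zinc-finger regulator that acts with its duplicate Nkd1 in forming the aleurone, the outer endosperm layer. Nkd2 had 56.4, 62.6 and 57.8 FPKM in fl3 endosperm, against 55.3, 57.9 and 60.6 FPKM in WT endosperm, with fl3 replicate 2 highest and WT replicate 1 lowest. Nkd1 (GRMZM2G129261) rose, with 169, 175 and 180.1 FPKM in fl3 endosperm, against 106, 116 and 117 FPKM in WT endosperm (log2 fold change 0.63, adjusted p = 3.17e-05 by limma), and its 3 fl3 values all lay above its 3 WT values. The acetyltransferase family gene GNAT19 (GRMZM2G123159) had a span of 13.4% of its lowest library. The remaining named steady genes, vip3, minE (also chs1), arf1, paa, prc1 and prl1, had spans between 7.52% of the lowest library for vip3 (GRMZM2G070061) and 12.4% for prl1 (GRMZM2G133919), and their roles in maize are left out here.

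Functions with several abundant genes and no steady one were also present. None of 8 abundant histone genes was steady, with ratios between 1.27 and 1.83, and none of 7 abundant heat shock protein genes, with ratios between 1.18 and 3.16. Of all abundant genes 11.7% were steady. At that share lists this short can hold no steady gene, so nothing about these functions is read from the counts. Of 9 tested histone genes 3 rose, 2 fell and 4 did not pass, and of 13 tested heat shock genes 6 rose and 7 fell, by limma, beside 43.5% higher and 23.8% lower of all tested genes.

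Conventional reference genes of maize expression work were listed by symbol to ask how the usual choices behave in this comparison. The list matched 32 genes, of which 31 were tested. By limma at an adjusted p under 0.05, 13 rose, 7 fell and 11 did not pass, beside 67.3% of all tested genes called. Under median-of-ratios scaling 11 rose and 16 fell. Of the 22 that were abundant, 5 (22.7%) were steady, namely act1, Maz95, TUB1, gpc2 and EF1A, beside 11.7% of all abundant genes. The list was not chosen by steadiness, and it was assembled with earlier results of these data known. No gene was matched for cyclophilin, folylpolyglutamate synthase, LEUNIG, UPF1 or MEP, and the actin Maz63 was below the level tested.

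Actins ran from steady genes to Maz81, the gene of the highest ratio among the tested conventional references. Maz81 (GRMZM2G006765) had 33.6, 29.4 and 35.3 FPKM in fl3 endosperm, against 3.82, 4.64 and 3.79 FPKM in WT endosperm, and Maz83 (GRMZM2G126190) had 73.9, 66.5 and 78.0 FPKM in fl3 endosperm, against 19.6, 18.8 and 19.1 FPKM in WT endosperm. Both rose (log2 fold change 2.73, adjusted p = 1.56e-07 by limma for Maz81, and log2 fold change 1.87, adjusted p = 2.03e-07 by limma for Maz83), and no fl3 library overlapped a WT library. Of the 2 other genes labelled Actin-7, GRMZM2G082484 fell to 91.4 ± 6.96 FPKM in fl3, against 129 ± 17.0 FPKM in WT (SD, n = 3 each, log2 fold change -0.49, adjusted p = 0.00214 by limma). GRMZM2G067985 had 78.3 ± 8.20 FPKM in fl3 and 67.9 ± 5.82 FPKM in WT and did not pass (SD, n = 3 each, log2 fold change 0.20, adjusted p = 0.0746 by limma), but passed without fl3 replicate 2 or without WT replicate 2. The summed level of the 6 tested actins was 597 ± 32.3 FPKM in fl3 and 546 ± 20.7 FPKM in WT (SD, n = 3 each), a fold of 1.09, with no overlap. The sums overlapped under upper-quartile, quantile and median-of-ratios scaling, with a fold of 0.961 under the last.

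The tubulins had the widest family differences. Alpha-tubulin sums reached 2311 ± 68.4 FPKM in fl3 against 1360.0 ± 36.2 FPKM in WT, a fold of 1.70, and beta-tubulin sums reached 814 ± 19.6 FPKM in fl3 against 446 ± 17.6 FPKM in WT, a fold of 1.83 (SD, n = 3 each). The folds stayed between 1.49 and 1.98 for alpha-tubulins and between 1.60 and 1.85 for beta-tubulins under the 4 other scalings, with no overlap. Among alpha-tubulins, tua4 (GRMZM2G152466), the gene matching both tua1 and tua2 (GRMZM2G153292) and tua5 (GRMZM2G099167) rose by log2 fold changes of 1.12, 0.66 and 0.37, and tua6 (GRMZM2G083243) fell (log2 fold change -0.32, adjusted p = 6.83e-04 by limma). The call of tua5 was lost under median-of-ratios scaling. Among beta-tubulins, tub2 (GRMZM2G334899) had 62.1, 61.7 and 63.0 FPKM in fl3 endosperm, against 17.0, 12.5 and 14.6 FPKM in WT endosperm, and tub6 (GRMZM2G071790) had 279, 289 and 318 FPKM in fl3 endosperm, against 129, 120.3 and 117 FPKM in WT endosperm. Both rose, and every fl3 library was far above every WT library (log2 fold change 2.02, adjusted p = 7.59e-07 by limma for tub2, and log2 fold change 1.26, adjusted p = 1.36e-06 by limma for tub6). Tub4 (GRMZM2G066191), the gene matching tub5 and tub8 (GRMZM2G133802) and TUB8 (GRMZM2G472945) rose as well, by 1.45, 0.99 and 0.66, and tub3 (GRMZM2G108766) fell (log2 fold change -0.44, adjusted p = 0.00192 by limma). Levels of tub4, TUB8 and tub3 were low, at means of 5.02, 3.43 and 3.92 FPKM over the 6 libraries, where the pseudocount understates a change. Against these 6 other beta-tubulins, the steady TUB1 had means of 159 ± 4.51 FPKM in fl3 and 158 ± 5.39 FPKM in WT (SD, n = 3 each).

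Glycolytic dehydrogenases, elongation factors and ubiquitins lay in between. None of gpc1, gpc3 and gpc4 passed as deposited, and all of them were called lower in fl3 under median-of-ratios scaling. Gpc3 (GRMZM2G071630) had 1442 ± 56.1 FPKM in fl3 and 1545 ± 96.0 FPKM in WT (SD, n = 3 each, log2 fold change -0.10, adjusted p = 0.304 by limma), but was called higher under quantile normalization. Gpc4 (GRMZM2G176307), the most abundant of the list, had 2262, 2383 and 2429 FPKM in fl3 endosperm, against 3251, 2668 and 2583 FPKM in WT endosperm, with WT replicate 1 well above the other libraries (log2 fold change -0.26, adjusted p = 0.0626 by limma). Its fold change turned to 0.20 under quantile normalization without passing. Gpc1 (GRMZM2G046804) had a ratio of 1.29. Summed, the 4 dehydrogenase genes were at 4574 ± 81.2 FPKM in fl3 and 5145 ± 496 FPKM in WT (SD, n = 3 each), a fold of 0.889 with no overlap, and at a fold of 1.19 with overlap under quantile normalization.

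Of the elongation factor 1-alpha genes, elfa3 (GRMZM2G154218; log2 fold change -0.40, adjusted p = 0.00462 by limma) and elfa2 (GRMZM2G149768; log2 fold change -0.25, adjusted p = 0.0129 by limma) fell, and elfa2 was not called under quantile normalization. The gene matching elfa7 and elfa8 (GRMZM2G110509) missed the ratio limit at 1.153, with 404, 405 and 425 FPKM in fl3 endosperm, against 459, 398 and 413 FPKM in WT endosperm, where WT replicate 1 was highest and the genotypes overlapped. It did not pass as deposited (log2 fold change -0.04, adjusted p = 0.621 by limma) and was called lower under median-of-ratios scaling. The 4 genes summed to 2982 ± 126 FPKM in fl3 and 3302 ± 118 FPKM in WT (SD, n = 3 each), a fold of 0.903 that turned to 1.152 under quantile normalization. Ubiquitin genes went both ways, with MUB6 (GRMZM2G118637; log2 fold change 0.52, adjusted p = 2.20e-04 by limma) and MUB14 (GRMZM2G419891; log2 fold change 0.19, adjusted p = 0.0344 by limma) up and MUB3 (GRMZM2G409726; log2 fold change -0.41, adjusted p = 6.34e-04 by limma) down. The MUB14 call was lost without any 1 of 5 libraries, every library but fl3 replicate 1. Other settings in which it was lost included median-of-ratios scaling, upper-quartile scaling and a term for replicate number. The summed level of the ubiquitin genes was 776 ± 32.8 FPKM in fl3 and 749 ± 41.3 FPKM in WT (SD, n = 3 each) and overlapped under every scaling. GOS2, GRMZM5G835323, an initiation factor gene of the eIF1 type, rose to 50.3 ± 3.58 FPKM in fl3, against 26.4 ± 4.49 FPKM in WT (SD, n = 3 each, log2 fold change 0.91, adjusted p = 1.17e-04 by limma). Cullin-1, GRMZM2G166089, fell (log2 fold change -0.43, adjusted p = 1.88e-04 by limma), and Cullin-4, GRMZM2G704093, did not pass (log2 fold change -0.10, adjusted p = 0.396 by limma) except under median-of-ratios scaling, where it was called lower.

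**Figure D3:**
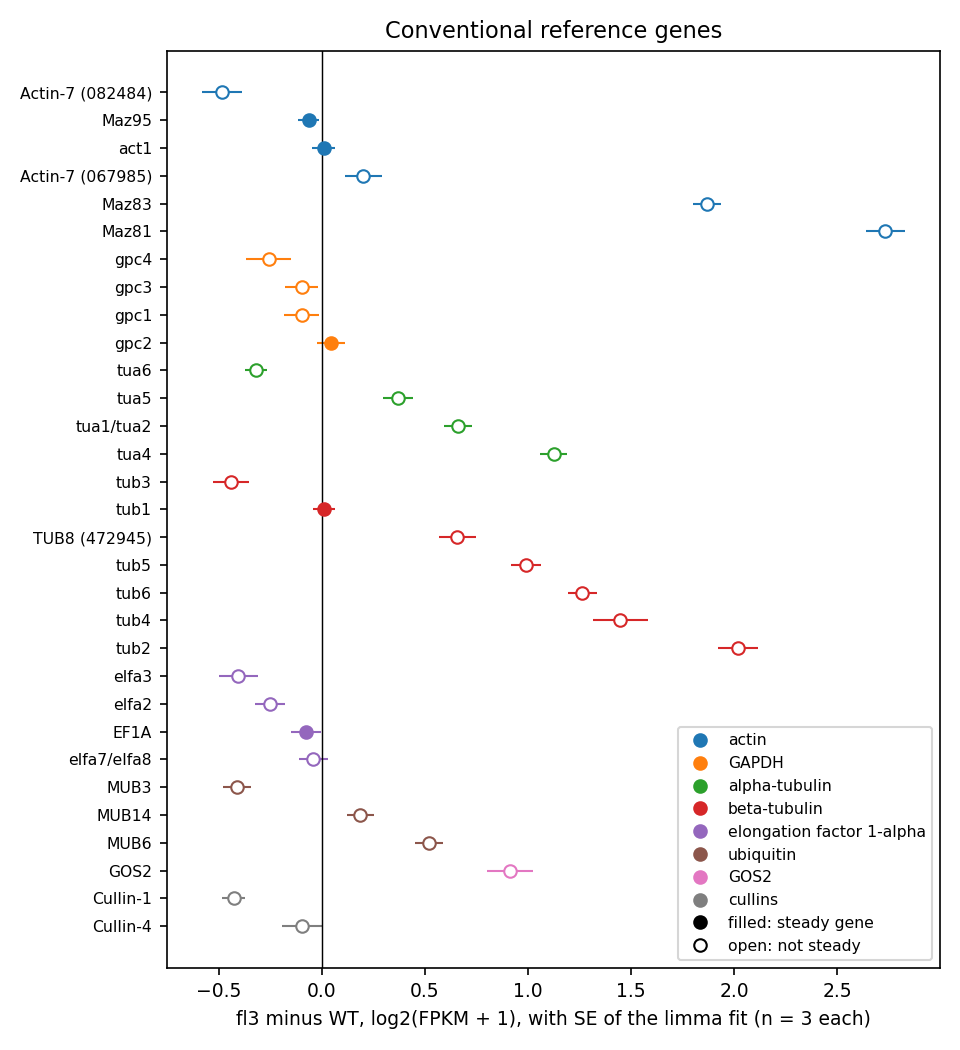
Each row is 1 of the 31 tested conventional reference genes, grouped by family in colour, with its log2 fold change (fl3 over WT, pseudocount of 1 FPKM) and the standard error of the limma fit (n = 3 each). Filled circles mark the 5 steady genes, which lie near 0, and open circles run between -0.49 for an Actin-7 gene and 2.73 for Maz81.

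The ratio of 2 genes within a library does not depend on a scaling by 1 factor per library (quantile normalization does change it), so pairs were compared by the standard deviation of their log2 ratio over the 6 libraries. The candidates were the 29 named steady genes and the 17 other abundant conventional references. Pairs of 2 steady genes had a median of 0.0813 over 406 pairs, between 0.0184 and 0.157. Pairs of a steady gene with another conventional reference had a median of 0.216, and pairs of 2 other conventional references 0.327 over 136 pairs and up to 0.967. The steady genes entered this comparison chosen for low spread, so the low values of their pairs and the order of the medians follow from the choice, and nothing is read from them. The lowest pair was RPL19 with vpp2, both of which were lower in every fl3 library than in any WT library, so a low value marks 2 genes that keep their proportion and not 2 genes that hold their level. By the mean over all its pairs, vip3 came first of 46 at 0.143, followed by act1 and minE at 0.144 each and by Maz95 and EF1A at 0.146 each. The first ranks differed in the third decimal only, and since 29 of the 46 candidates are steady genes, a mean over all pairs favours steady genes. Last came tub6 at 0.685.

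Whether a gene is steady depends on what is held equal between libraries. Setting each library's sum to the same total kept 182 of the 203 (89.7%) among 194 steady genes. Quantile normalization, which gives every library the same distribution of values, kept 139 (68.5%) among 195, and upper-quartile scaling kept 106 (52.2%) among 164. Median-of-ratios scaling, which sets the typical gene of fl3 equal to that of WT, kept 36 (17.7%), which were 22.0% of its 164 steady genes. Its factors were 1.06 to 1.07 for fl3 libraries and 0.928 to 0.946 for WT libraries, so it lowers fl3 values and raises WT values. Under it the log2 ratio of mean FPKM, fl3 over WT, of the 203 genes ran between -0.35 and -0.02 with a median of -0.19, and 180 of them had every fl3 library below every WT library. As deposited, that median was -0.002. The median of all abundant genes moved to -0.16 under the same scaling, against 0.03 as deposited. Steady as deposited is thus a statement about shares of similar FPKM totals, which summed to between 465741 and 480602 per library.

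**Figure D4:**
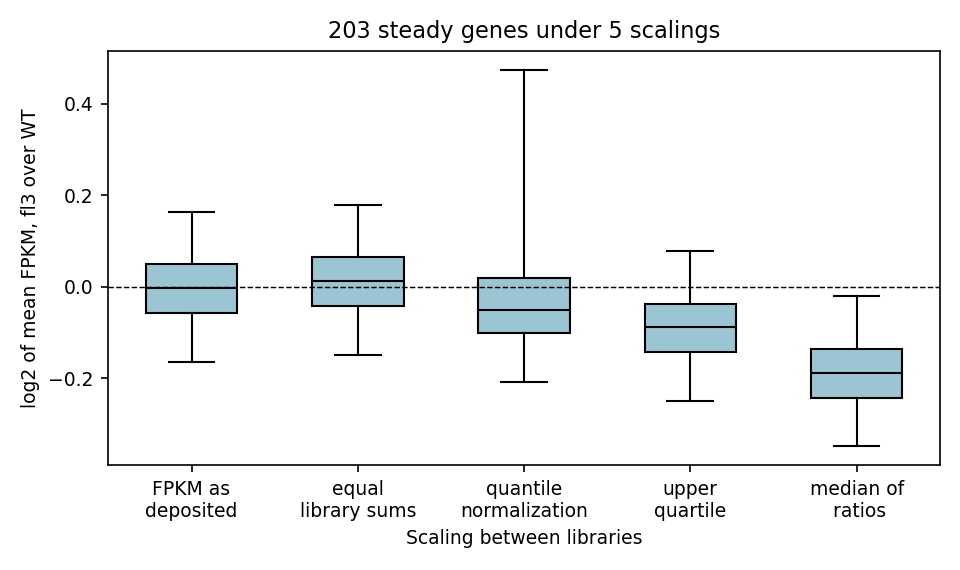
Boxes show the log2 ratio of mean FPKM, fl3 over WT, of the 203 steady genes under 5 ways of scaling the libraries, with the median as a line, the quartiles as the box and whiskers to the lowest and highest gene. The median is near 0 as deposited and with equal library sums, and reaches -0.19 under median-of-ratios scaling, where all 203 genes are below 0.

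A smaller core of 26 genes (12.8%) met the rule under all 5 scalings, and 29 met it under the 4 scalings that use 1 factor per library. The first 5 of the core by ratio were GRMZM2G117900, GRMZM2G104918, GRMZM2G420713, GRMZM2G009638 and GRMZM2G352129, none with a name. GRMZM2G117900 had 96.1, 98.2 and 98.4 FPKM in fl3 endosperm, against 92.8, 95.8 and 95.3 FPKM in WT endosperm, and GRMZM2G352129 had 178, 186 and 179.9 FPKM in fl3 endosperm, against 169.5, 177 and 177 FPKM in WT endosperm. In both, each fl3 library was slightly above each WT library, and the same held for rps24, RS2Z37A, paa and GNAT19, the 4 named genes of the core. Median-of-ratios scaling lowers fl3 values against WT values. Meeting the rule both as deposited and under it therefore favours genes that are higher in fl3 as deposited. The direction follows from the choice, and nothing is read from it. None of act1, Maz95, TUB1, gpc2 and EF1A was in the core. Their ratios under median-of-ratios scaling were 1.182 for act1, 1.254 for Maz95, 1.224 for TUB1, 1.188 for gpc2 and 1.259 for EF1A. EF1A also reached 1.57 under quantile normalization, which turned it higher in fl3 (log2 ratio of the genotype means 0.48, against -0.08 as deposited).

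The rule was also applied to 5 libraries and read in the sixth, which it then had not used. Leaving out a library gave between 227 and 300 steady genes. With the left-out library added back, the share still within the limit was 77.5% for fl3 replicate 1, 87.2% for fl3 replicate 2 and 82.3% for fl3 replicate 3. It was 67.3% for WT replicate 1, 84.5% for WT replicate 2 and 89.0% for WT replicate 3. WT replicate 1 stood apart in this respect, with 15 of its 300 genes above a ratio of 1.3, against at most 1 gene for any other library.

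The rule was also applied within 1 genotype and read in the other. In the 3 fl3 libraries alone, 1260 of 1762 abundant genes (71.5%) were within the ratio limit. The WT mean lay within 15% of the fl3 mean for 457 of these (36.3%), and it differed at least 2-fold for 85. In the 3 WT libraries alone, 1208 of 1681 abundant genes (71.9%) were within the limit, the fl3 mean lay within 15% for 441 of them (36.5%), and it differed at least 2-fold for 78. Over all 6 libraries, 16.1% of the genes chosen in fl3 and 17.4% of those chosen in WT were within the limit, beside 11.7% of all abundant genes. A gene within the limit over all 6 libraries is also within it in each genotype. These 2 shares therefore follow largely from the counts within 1 genotype, and nothing is read from them. The shares by means are another measure than those of the left-out libraries above. The share of all abundant genes with means within 15% was not computed, so nothing further is read from them.

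The choice of reference bears on what is read for a target gene. The floury3 transcript itself (GRMZM2G006585) had 3214, 3084 and 3176 FPKM in fl3 endosperm, against 2100.0, 2427 and 2254 FPKM in WT endosperm (log2 fold change 0.48, adjusted p = 0.00146 by limma), with every fl3 library above every WT library. Taken as a log2 ratio to a named steady gene, its difference between genotypes ran between 0.36 and 0.63 over the 29 references. The steady genes were chosen for small differences between libraries, so the narrow range against them, here and for opaque2 below, follows from the choice and is a description. Against act1 it was 0.48, against TUB1 0.48 and against EF1A 0.56. Over the 17 other abundant conventional references it ran between -0.79, against tub6, and 0.97, against an Actin-7 gene (GRMZM2G082484), with 12 above 0 and 5 below. The 5 below were MUB6 and 4 tubulins, namely tua4, tub6, the gene matching tub5 and tub8, and the gene matching tua1 and tua2. The transcript of opaque2 (o2, GRMZM2G015534), a bZIP activator of storage protein genes, fell, with 25.9, 35.6 and 36.0 FPKM in fl3 endosperm, against 63.2, 68.8 and 69.9 FPKM in WT endosperm (log2 fold change -1.04, adjusted p = 8.07e-05 by limma). Its log2 ratio to the named steady genes differed between genotypes by -1.19 to -0.92, and its ratio to the other conventional references by -2.34 to -0.58, negative for all 17 of them. The gene opaque2 was picked with its values in view.

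Steady genes were found on all 10 chromosomes of the RefSeq assembly. They made up 18.6% of the abundant genes assigned to chromosome 3 (26 of 140), 16.3% on chromosome 8 (23 of 141) and 15.3% on chromosome 5 (27 of 176). The lowest shares were 6.06% on chromosome 4 (10 of 165) and 7.74% on chromosome 6 (12 of 155). These shares are given as a description, without a test.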

How the data were processed

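RNA of 3 fl3 and 3 WT endosperm libraries was measured by Illumina sequencing, per the labels' protocols. The authors deposited 1 table of FPKM values per library for the same 39448 genes. FastQC, TopHat, Bowtie2 and the build B73 RefGen_v3 are listed in the submitters' processing notes without roles. How FPKM was computed, from which annotation and with which strand setting, is not given in the sources used here. Low values did not fall into steps of whole reads (at most 4.41% of low genes shared a common ratio between libraries within 1%). Depth is therefore unknown, and no count test or counting interval is given.

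The tables were joined on the gene identifier, and genes averaging 50 FPKM or more with a highest library at most 15% above the lowest were taken. The members and the gene lists were chosen with earlier results of these data known. The 17272 genes averaging 1 FPKM or more were fitted as log2(FPKM + 1) with limma 3.58.1 in R 4.3.3, genotype being the only term and the variance following a mean-variance trend. The two-sided p-values had Benjamini-Hochberg adjustment over all of them and a threshold of 0.05. Each sets the difference between genotypes against the spread among libraries within a genotype, moderated across genes. A pseudocount of 1 understates the change of low genes. Other scalings, filters, pseudocounts, a replicate term and the omission of each library were tried.

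Names came from the RefSeq gene table of assembly Zm-B73-REFERENCE-NAM-5.0, which differs from the build of the files, so only names and chromosomes were used. It matched 18906 identifiers. The lists and markers were searched by symbol, since the table holds no descriptions. Named genes were the 25 named members of lowest ratio, the 3 members of lowest ratio and the 3 of highest mean, the 2 genes on each side of each limit, every conventional reference, floury3, and the first 5 members steady under every scaling. The text says where a gene was picked outside this rule, with its values in view. Tables were handled with Python 3.11.15, pandas 2.3.3 and numpy 2.4.6, and plots drawn with matplotlib 3.10.9.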

Additional observations from a re-analysis of the deposited data

How the results depend on the processing

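The number of steady genes followed the limits set. It was 67 with a highest library at most 10% above the lowest, 341 at 20% and 480 at 25%, and it was 449 at a mean of at least 20 FPKM and 86 at 100 FPKM. A coefficient of variation of at most 5% gave 166 genes, 162 of them shared with the 203. Over the 3 fl3 libraries alone it was 1260 and over the 3 WT libraries alone 1208, an alternative chosen after seeing the data, as were those of the pairwise comparison. Leaving out 1 library gave 227 to 300 steady genes, 6888 to 7357 genes called higher and 3613 to 4007 called lower in fl3, and 12 to 13 conventional references that rose and 7 that fell. The median pairwise SD of the named steady genes was 0.0748 to 0.0818 in the same omissions and 0.0912 under quantile normalization.

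With a mean of at least 5 FPKM required, 4771 of 11264 tested genes were called higher, fewer genes being tested. Under median-of-ratios scaling 16 conventional references fell, against 7 as deposited, since that scaling lowers fl3 values. Among single genes with a test, 1094 values kept their side of the threshold, 24 of them with a turned sign in values that did not pass, 69 lost their call and 17 gained one. For 2 more values the sign turned as a call was gained or lost. Gpc3 (GRMZM2G071630), not called as deposited, was called at 0.42 under quantile normalization. The initiation factor eIF-4A (GRMZM2G116034) lost its call of 0.18 under median-of-ratios scaling, at -0.0033 (adjusted p = 0.965 by limma). Neither gene was called in both directions. Among values that did not pass, gpc4 (GRMZM2G176307) turned to 0.20 and elfa7 (GRMZM2G110509) to 0.02 under quantile normalization. Without WT replicate 1, elfa7 also turned to 0.02. Under median-of-ratios scaling vpp3 (GRMZM2G421857) turned to -0.07 and vdac1a (GRMZM2G150616) to -0.10. Signs turned for 12 genes in all, gpc3 and eIF-4A among them. The cause was not tested. For single steady genes, 623 values moved by less than the replicate spread and 129 by more.

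Replicate numbers are shared between genotypes, but same-numbered libraries did not deviate together, with correlations of deviations of -0.15, 0.07 and -0.02, so the numbers are not taken as pairs. With the replicate block, 7240 genes were called higher and 3897 lower, and 12 conventional references rose and 7 fell. The calls lost among the named genes were those of MUB14 and eIF-4A. Depth is unknown, so what counting error adds to the small ratios described here could not be estimated.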

Other observations

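Below the level limit, 246 of 2684 genes with a mean of 20 to 50 FPKM (9.17%) met the same limit of 15% between lowest and highest library, and 29 of them had an informative name. These genes were chosen by the ratio over the same 6 libraries and are described without a test, and the 7 named here were picked with their values in view. DNA replication and maintenance were represented by pcna2 (GRMZM2G108712), the sliding clamp of DNA polymerase, with 42.8, 39.8 and 39.7 FPKM in fl3 endosperm against 43.5, 40.7 and 43.2 FPKM in WT endosperm. The DNA methyltransferase gene met5 (GRMZM2G005310) had 24.2, 22.3 and 21.5 FPKM in fl3 endosperm against 21.9, 24.0 and 22.9 FPKM in WT endosperm. Both overlapped between genotypes. The histone deacetylase gene HDA108 (GRMZM2G136067) had a span of 12.2% of its lowest library. None of the 8 abundant histone genes was steady above 50 FPKM, a count from which nothing is read.

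Protein targeting was represented by toc34B (GRMZM2G157157), a receptor of the plastid import machinery, with 50.1, 50.8 and 48.4 FPKM in fl3 endosperm against 46.5, 46.6 and 49.5 FPKM in WT endosperm, and by SRP9 (GRMZM2G046576), of the signal recognition particle, at a span of 14.8%. The transporter gene lpa1 (GRMZM5G820122), which is required for normal phytic acid in the seed, had 44.7, 42.2 and 42.5 FPKM in fl3 endosperm against 46.3, 40.8 and 42.8 FPKM in WT endosperm. The WT libraries of lpa1 enclosed all 3 fl3 values. The gene ct2 (GRMZM2G064732), for the alpha subunit of a heterotrimeric G protein, had a span of 13.5%.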
